A study of Mus musculus with 8 samples.

Results

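The 10 genes described here encode subunits of activator protein 1 (AP-1) and other early response proteins: Fos, Fosb, Jun, Junb, Jund, Egr1, Ier2, Ier3, Atf3 and Klf6. They were chosen by name, as 10 of the 18174 gene symbols in the count tables, and all 10 were present in every table. AP-1 is a dimer of basic leucine zipper proteins, usually one of the Fos family with one of the Jun family, or a Jun dimer. The genes of this class are known for being transcribed within minutes of a stimulus without new protein synthesis, through signalling by mitogen-activated and stress-activated kinases, and for the short life of their mRNA. In blood stem cells they are known to respond to cytokines and to the handling of the cells, including dissociation and sorting.

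The cells studied were long-term hematopoietic stem cells (LT-HSC), which came from pooled bone marrow of untreated male C57BL/6J mice aged 18 months. The cells were sorted as lineage-negative, CD150+, CD48-, CD34-, Kit+ and Sca1+, and as positive or negative for the surface protein Dlk1, so that both groups share strain, age, sex and every gate except Dlk1. Each sort gave 4 libraries of 96 wells, made by mCEL-Seq2, a plate method that counts the 3' ends of mRNA with unique molecular identifiers (UMIs); each molecule is counted once, whatever its length. No label ties a library to an animal, and p-values therefore measure only the spread between these libraries, which may in part be technical. Only barcodes assigned to a sort with at least 1000 transcripts were used, which left 86, 27, 26 and 81 cells in Dlk1+ replicates 1 to 4 and 96, 36, 95 and 94 cells in Dlk1- replicates 1 to 4. These 541 cells carried 21634 UMIs of the 10 genes.

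The libraries differed in depth before any comparison. Summed transcripts ranged from 39073 to 456925 in the Dlk1+ libraries and from 230443 to 517559 in the Dlk1- libraries. Dlk1+ replicate 3 stood apart, with a median of 1299.8 transcripts per cell against 3421 to 5584 in the other 7, and with 75 barcodes of at least 500 transcripts but only 26 of at least 1000. The comparisons of the sorts are given with and without it, and other results where it moved them. Replicates 1 and 2 of both sorts came from plate 5 and replicates 3 and 4 from plate 6. Well barcodes are reused between libraries (84 of 86 in the Dlk1+ and 96 of 96 in the Dlk1- sort were kept in more than 1 library). The sorts were assigned separate barcodes, so by this rule none could be kept in both. Within a sort, 0 cells had identical counts, a check that would miss carry-over of part of the counts. HSC markers were present, with all 12 listed genes detected and a summed level of 1894 to 3408 CPM (counts scaled to the library total) in the Dlk1+ and 2483 to 3373 CPM in the Dlk1- libraries. The 5 T cell markers listed were absent from the count tables. Summed markers of other types reached 742 CPM (megakaryocyte), 140 (erythroid), 107 (stroma) and 81.0 (progenitor) in a Dlk1+ library. In a Dlk1- library, endothelium markers reached 122 CPM and B cell markers 39.1 CPM. One cell of Dlk1+ replicate 4 held 1842 of the 1855 myeloid marker UMIs of its library, and 61 UMIs of the 10 genes. Dlk1 itself, the sorted protein's gene, was higher in the Dlk1+ libraries (log2 fold change 4.80, SE 0.49, adjusted p = 5.005e-05, limma-voom).

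RefSeq promoters on the mouse build GRCm38.p6 were matched by symbol for 8 of the 10 genes; Egr1 and Ier2 had no entry. Those of Fos, Fosb and Junb are shown as examples that share a short motif. Across cells, as described further on, Fosb and Junb each correlated with Fos (0.38 and 0.30) but less with each other (0.125). Jund (0.37) and Jun (0.32) also correlated with Fos, and their windows lack the motif. Each is the 250 bases before the transcription start, 5' to 3' on the gene's strand. Capitals mark TGACG, the core of the cAMP response element, and TATAAA, the TATA box motif, searched on both strands. The windows are chr12:85473640-85473889 on the plus strand for Fos, chr7:19310046-19310295 on the minus strand for Fosb and chr8:84978749-84978998 on the minus strand for Junb.
Fos: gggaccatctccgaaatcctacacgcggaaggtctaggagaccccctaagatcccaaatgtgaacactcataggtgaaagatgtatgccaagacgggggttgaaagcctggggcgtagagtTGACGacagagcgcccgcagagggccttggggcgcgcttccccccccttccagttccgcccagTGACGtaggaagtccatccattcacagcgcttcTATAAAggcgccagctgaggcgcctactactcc
Fosb: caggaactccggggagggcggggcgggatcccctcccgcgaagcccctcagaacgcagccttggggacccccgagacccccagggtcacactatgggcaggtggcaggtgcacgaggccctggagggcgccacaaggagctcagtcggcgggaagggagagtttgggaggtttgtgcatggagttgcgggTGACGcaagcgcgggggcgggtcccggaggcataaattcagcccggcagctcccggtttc
Junb: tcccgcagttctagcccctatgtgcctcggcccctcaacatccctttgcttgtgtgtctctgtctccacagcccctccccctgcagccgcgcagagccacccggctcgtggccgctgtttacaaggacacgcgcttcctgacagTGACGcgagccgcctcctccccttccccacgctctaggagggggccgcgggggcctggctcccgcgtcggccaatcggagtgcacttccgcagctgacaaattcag

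The core motif TGACG began 129 and 66 bases before the start of Fos, 60 before that of Fosb and 106 before that of Junb, on the gene's strand, and 7 before that of Atf3 on the opposite strand. It was thus found in 4 of the 8 promoters, and in 17.8% of all 32851 RefSeq promoters of the same length; this count includes any core motif inside a full element. TATAAA, 33 bases before the start of Fos, was in 1 of 8 and in 12.4% of all. The full element TGACGTCA (1.55% of all promoters), the AP-1 site TGACTCA (4.46%) and the CArG box (1.47%) were in 0 of the 8 windows. A match describes these letters and not a bound site.

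Among the Fos family, which pairs with Jun proteins, Fos had the highest mean level of the 10 genes. Fos stood at 1640.4, 2205, 2201 and 2712 CPM in Dlk1+ replicates 1 to 4 and at 1457, 2092, 1676 and 2756 CPM in Dlk1- replicates 1 to 4. The groups overlapped throughout, and replicate 4 was the highest of both sorts. Replicate 4 also had the smallest share of counts on Gm10800 and Gm26870, which took 10.1% and 11.7% of its transcripts against 22.8% to 32.8% in the other libraries; the part of this in the Fos level was not tested. The mean was 2189.8 ± 438 CPM (SD, n = 4) in the Dlk1+ and 1995 ± 572 CPM (SD, n = 4) in the Dlk1- libraries. Fosb, the related subunit, stood at 359, 381, 102 and 755 CPM in the Dlk1+ and at 443, 764, 618 and 790.2 CPM in the Dlk1- libraries. Dlk1+ replicate 3 held the lowest Fosb value, from 4 UMIs in 26 cells, and the sorts overlapped.

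Of the Jun family, Jun, the classic partner of Fos, varied little between libraries. Jun stood at 1517, 1327, 1279.9 and 1692 CPM in the Dlk1+ and at 1379.7, 1228, 1241 and 1591 CPM in the Dlk1- libraries. Junb, which can act against Jun, stood at 935, 1064, 282 and 1129 CPM in the Dlk1+ and at 678, 681, 769.8 and 1077 CPM in the Dlk1- libraries. Apart from Dlk1+ replicate 3, the Dlk1+ values of Junb lay above those of Dlk1- replicates 1 to 3, and Dlk1- replicate 4 lay among them. Jund, the family member known to be expressed at a steady level in resting cells, stood at 1299.2, 2313, 3763 and 1403 CPM in the Dlk1+ and at 1071, 1098, 1035 and 1299.6 CPM in the Dlk1- libraries. Only Dlk1+ replicate 1 fell, narrowly, below the highest Dlk1- library.

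Jund took a larger share of the 10 genes' UMIs in Dlk1+ replicate 3 and on unused barcodes than in the other kept cells. In Dlk1+ replicate 3 Jund made up 41.9% of the UMIs of the 10 genes in the kept cells, against 15.5% in the cells of the other 7 libraries. Within that library, Jund was at 3766 CPM of UMIs in the 26 kept cells and at 5180.1 in the 49 barcodes of 500 to under 1000 transcripts. This rise was not particular to Jund: every other member except Klf6 was also higher in the 49 barcodes. Egr1 differed little, at 538 and 548 CPM of UMIs, and the kept cells held only 1 UMI of Atf3 and 4 of Fosb. The share of all genes that were higher in the 49 barcodes was not computed. Fos went from 2203 to 3672 CPM of UMIs, Junb from 282 to 877 and Klf6 from 154 to 137. On barcodes that a sort did not use, Jund made up 28 of the 79 UMIs of the 10 genes in the Dlk1+ libraries and 29 of 58 in the Dlk1- libraries, at 24.9 and 41.0 UMIs per barcode in all. Across cells thinned to 1000 UMIs, Jund correlated negatively with the depth of the cell in every library (mean r = -0.19, from -0.34 to -0.04, 8 libraries). So did Junb (mean r = -0.14, from -0.39 to -0.0091), and Egr1 was at -0.12 (from -0.50 to 0.05). In level (CPM), Junb and Egr1 were each lowest in the shallow Dlk1+ replicate 3. The log2 fold change of Jund, 0.77 in the main limma-voom test, was 0.64 with every cell thinned to 1000 UMIs, 0.51 with cells of at least 2000 transcripts and 0.48 without Dlk1+ replicate 3, and passed the threshold in none of these.

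Atf3, a stress-induced partner of Jun proteins, was the rarest of the 10 genes. Atf3 stood at 58.1, 39.0, 25.6 and 43.8 CPM in the Dlk1+ and at 7.73, 65.1, 12.6 and 18.9 CPM in the Dlk1- libraries. These values rest on 23, 4, 1 and 20 UMIs in the Dlk1+ and 4, 15, 6 and 9 UMIs in the Dlk1- libraries. The highest of all 8 libraries was thus a Dlk1- library, and the other 3 Dlk1- libraries lay below every Dlk1+ library.

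Among the other early response genes, Egr1, a zinc finger factor induced by growth signals, stood at 718, 888, 538 and 1075 CPM in the Dlk1+ and at 759, 586, 769.8 and 838 CPM in the Dlk1- libraries, and the sorts overlapped. Ier2, a nuclear early response protein, stood at 422, 507, 128 and 464 CPM in the Dlk1+ and at 375, 382, 315 and 449 CPM in the Dlk1- libraries. Its mean was 380.4 ± 172 CPM (SD, n = 4) in the Dlk1+ and 380.2 ± 54.5 CPM (SD, n = 4) in the Dlk1- libraries. Klf6, a zinc finger factor of the Krüppel family, stood at 276, 351, 154 and 556 CPM in the Dlk1+ and at 197, 286, 233 and 327 CPM in the Dlk1- libraries. For Ier2 and Klf6, as for Fosb, Junb and Egr1, Dlk1+ replicate 3 was the lowest of the 8 libraries. Ier3, an early response gene known to affect cell survival, stood at 281, 390.3, 512 and 229.8 CPM in the Dlk1+ and at 166, 152, 156 and 201 CPM in the Dlk1- libraries. Ier3 was the 1 member whose libraries did not overlap, with a mean of 353 ± 125 CPM (SD, n = 4) in the Dlk1+ against 169 ± 22.5 CPM (SD, n = 4) in the Dlk1- libraries. Of all 5666 genes tested, 1.11% had no overlap with Dlk1+ higher and 2.03% had none with Dlk1+ lower, and 0 members were of the second kind. Without Dlk1+ replicate 3, Ier3 was again the 1 member without overlap, where 2.07% of 6327 genes tested were so with Dlk1+ higher.

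**Figure D1:**
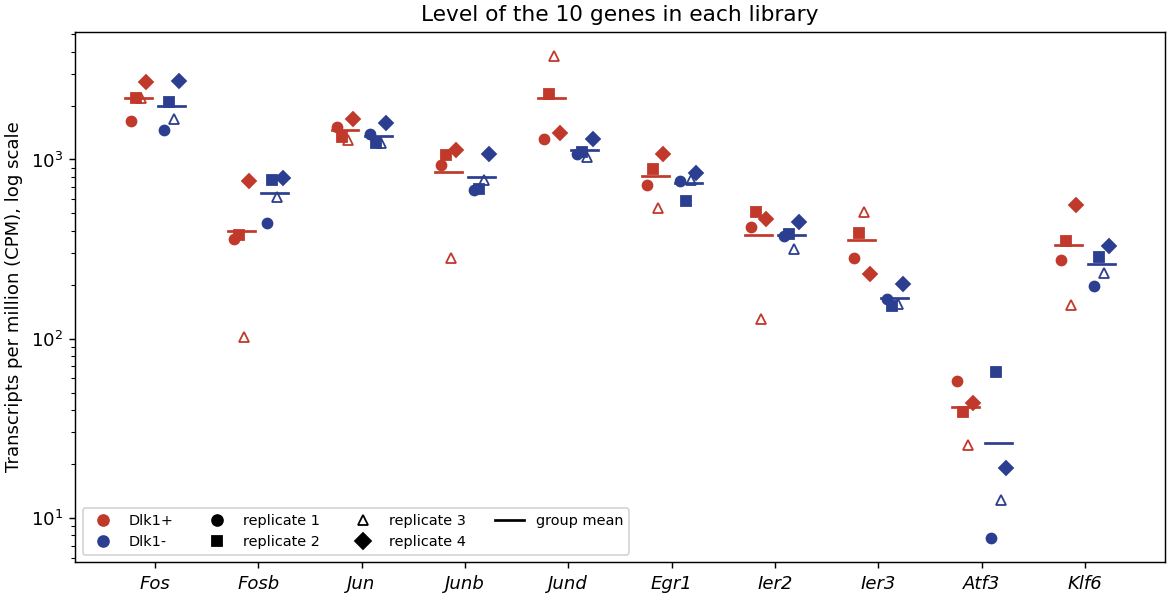
Level of each gene (CPM, log scale) in each of the 8 libraries, red for Dlk1+ and blue for Dlk1-, with a symbol for each replicate and a line at the group mean. Open triangles are replicate 3; in Dlk1+ that library is highest for Jund (3763 CPM) and lowest for Fosb (102 CPM), and the sorts do not overlap for Ier3.

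By mean level over the 8 libraries the order was Fos (2093 CPM, SD 483), Jund (1660.1, SD 943), Jun (1407, SD 173), Junb (827, SD 284), Egr1 (771, SD 170), Fosb (527, SD 246), Ier2 (380.3, SD 118), Klf6 (298, SD 123), Ier3 (261, SD 129) and Atf3 (33.9, SD 21.1). The steps from Jun to Junb and from Ier3 to Atf3 were larger than the SDs of both neighbours, and all other neighbours in this order differed by less than the larger of their SDs. When Dlk1+ replicate 3 was left out, Jun (1425 CPM, SD 179) stood above Jund (1359.7, SD 443), and the order of the other genes was the same.

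The sorts were then compared with limma-voom, fitted to transcripts summed per library over all genes, with Benjamini-Hochberg adjustment and a false discovery rate threshold of 0.05. None of the 10 genes passed (0 of 10), where 2 of 5666 genes tested did (0.0353%); these were Dlk1 and Timp3, an inhibitor of matrix metalloproteinases (log2 fold change 2.41, adjusted p = 0.0133). At an unadjusted p under 0.05, limma-voom listed 3 of the 10 (Jund, Ier3 and Atf3) and 6.51% of all genes. The estimates were positive for 8 of the 10 and for 44.9% of all genes tested, with a median log2 fold change of 0.12 against -0.04 over all genes.

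Ier3 had a log2 fold change of 0.91 in Dlk1+ against Dlk1- libraries (95% interval 0.36 to 1.46, adjusted p = 0.564, limma-voom). The estimate for Atf3 was 1.52 (0.56 to 2.49, adjusted p = 0.564), and it weights the deeper libraries, while its mean level was 41.6 CPM in the Dlk1+ and 26.1 CPM in the Dlk1- libraries. Jund was at 0.77 (0.21 to 1.32, adjusted p = 0.694). Fosb had the most negative estimate, -0.75 (-1.50 to 0.01, adjusted p = 0.757, limma-voom), with an interval that just included 0. For Fos the estimate was 0.14 (-0.31 to 0.59) and for Jun 0.09 (-0.36 to 0.54), the narrowest intervals of the 10. Klf6 (0.38), Egr1 (0.10), Ier2 (0.01) and Junb (-0.02) had intervals that included 0, and those of Ier2 and Junb reached from -0.65 to 0.66 and from -0.73 to 0.69.

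Without Dlk1+ replicate 3, again 0 of the 10 genes passed, where 3 of 6327 genes tested did (0.0474%). Junb went from -0.02 to 0.41 (95% interval 0.12 to 0.70), and Fosb from -0.75 to -0.32. Ier2 stood at 0.30, Egr1 at 0.28 and Klf6 at 0.64. Jund stood at 0.48 and Ier3 at 0.72, while Atf3 stood at 1.76 (0.93 to 2.60, adjusted p = 0.259, limma-voom). At an unadjusted p under 0.05 were 6 of the 10 (Junb, Jund, Egr1, Ier3, Atf3 and Klf6), against 6.94% of all genes. Estimates were then positive for 9 of 10, with a median log2 fold change of 0.35 against -0.01 over all genes. Leaving out Dlk1+ replicate 4 instead brought Ier3 past the threshold (log2 fold change 1.20, adjusted p = 0.0455, limma-voom), where 19 of 5730 genes tested passed (0.332%).

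**Figure D2:**
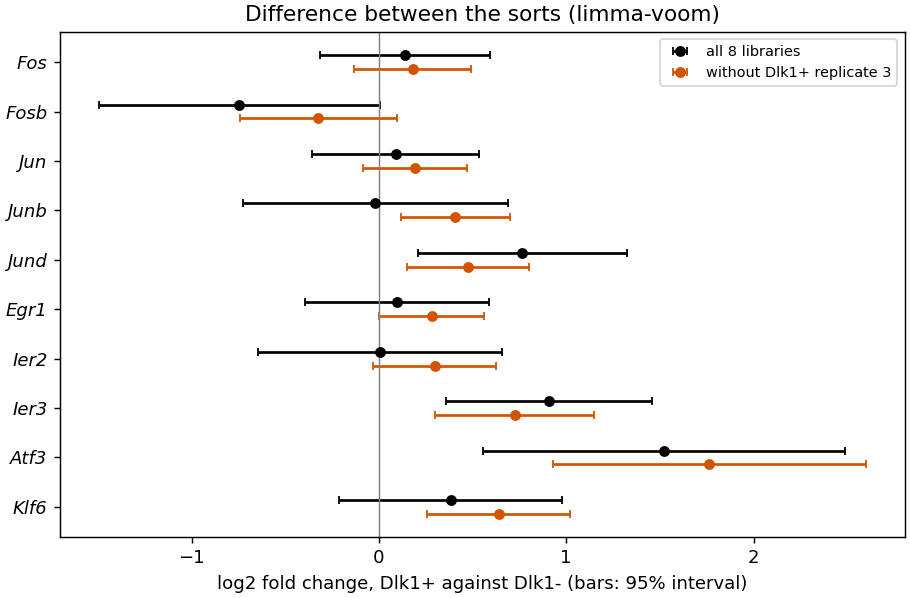
Log2 fold change of each gene, Dlk1+ against Dlk1-, from limma-voom with all 8 libraries (black) and without Dlk1+ replicate 3 (orange); bars are 95% intervals. Junb moves from -0.02 to 0.41 and Fosb from -0.75 to -0.32, and Fosb is the 1 gene below 0 in both fits.

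Within plates, the ratio of mean CPM showed which differences rested on plate 6, where Dlk1+ replicate 3 lies. On plate 5, 9 of the 10 genes were higher in the Dlk1+ libraries, and on plate 6, 7 of 10. Egr1 on plate 6 was nearly equal, at 806 CPM in the Dlk1+ and 804 CPM in the Dlk1- libraries. The share of all genes higher on each plate was not computed, so no background stands beside these counts. The log2 ratio of Ier3 was 1.07 on plate 5 and 1.05 on plate 6, that of Fosb -0.70 and -0.71, and that of Jund 0.74 and 1.15. Junb was at 0.56 on plate 5 and -0.39 on plate 6, and Ier2 at 0.30 and -0.37. With 2 libraries of each sort on a plate, these are values without a test.

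To compare shares of cells at equal depth, each cell was thinned to 1000 UMIs. Jund was seen in 67.8%, 80.0%, 79.2% and 73.0% of cells in Dlk1+ replicates 1 to 4 and in 58.8%, 59.4%, 60.2% and 65.2% in Dlk1- replicates 1 to 4. Ier3 was seen in 20.5%, 25.2%, 36.2% and 18.6% of the Dlk1+ and in 15.4%, 17.2%, 14.7% and 16.4% of the Dlk1- cells. The sorts did not overlap for these 2 of the 10 genes, as for 1.48% of all genes tested. Without Dlk1+ replicate 3 this held for 6 of the 10 (Jun, Junb, Jund, Egr1, Ier2 and Ier3), against 2.94% of all genes. Thinned to 2000 UMIs instead, again without that library, it held for 4 of the 10 (Junb, Jund, Egr1 and Ier3), against 2.96% of all genes. Shares depend on depth: at 2000 UMIs, where Dlk1+ replicate 3 keeps 4 cells, the mean share with all libraries was lower in the Dlk1+ sort for Jun (76.3% against 78.6%) and Egr1 (56.6% against 64.7%), and without it higher (85.0% and 75.4%). At 1000 UMIs Junb, for example, was seen in 60.7%, 60.4% and 65.9% of cells in the other 3 Dlk1+ libraries and in 41.0%, 49.2%, 45.2% and 53.2% in the Dlk1- libraries, but in 30.0% in Dlk1+ replicate 3. The genes are correlated across cells, so these counts are not independent. At full depth Ier3 was seen in 51.2%, 44.4%, 50.0% and 50.6% of the Dlk1+ and in 42.7%, 52.8%, 40.0% and 46.8% of the Dlk1- cells, which overlapped. Its 95% Wilson interval, which covers counting error only, was 32.1% to 67.9% in the 26 cells of Dlk1+ replicate 3. Unused barcodes carried 137 UMIs of the 10 genes on 728 barcodes, at 0.031 to 0.36 per barcode, against 13.5 to 56.6 per kept cell. Cells of a type known to lack these genes were not analysed here, and the low level on unused barcodes is the background available.

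Most of the 10 genes were dispersed across cells beyond counting noise. The Fano factor, the variance over the mean of UMIs per cell, is 1 where only counting noise acts, and its median over 1155 genes of at least 0.1 UMI per thinned cell was 1.05. Fos had a Fano factor of 3.13 ± 0.43 (SD over 8 libraries), and 6 of the 1155 genes had a higher one. In Dlk1+ replicates 1 to 4 it was 2.63, 3.57, 2.95 and 2.94, and in Dlk1- replicates 1 to 4 it was 3.00, 2.68, 3.41 and 3.82. The Fano factor grows with depth, and at 2000 UMIs, without Dlk1+ replicate 3, that of Fos was 5.35, with 7 of 2795 genes above it and a median of 1.06. The 10% of cells richest in Fos held 38.2% of its UMIs on average over libraries. Jun (1.85 ± 0.35), Jund (1.83 ± 0.40), Fosb (1.69 ± 0.36) and Junb (1.62 ± 0.41) followed, with 19, 20, 27 and 31 genes above them. With Dlk1+ replicate 3 left out, Fos was at 3.15 and these 4 genes at 1.77, 1.72, 1.77 and 1.72. Klf6 (1.46), Egr1 (1.45), Ier3 (1.35) and Ier2 (1.20) were lower, and 144 genes exceeded Ier2. Atf3, at 0.034 UMI per cell, was too rare to be ranked. The ranks were not matched for mean level, and only 35 genes had a higher mean than Fos, 46 than Jund and 69 than Jun. For none of the 10 genes did the Fano factors of the 2 sorts fall apart without overlap.

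**Figure D3:**
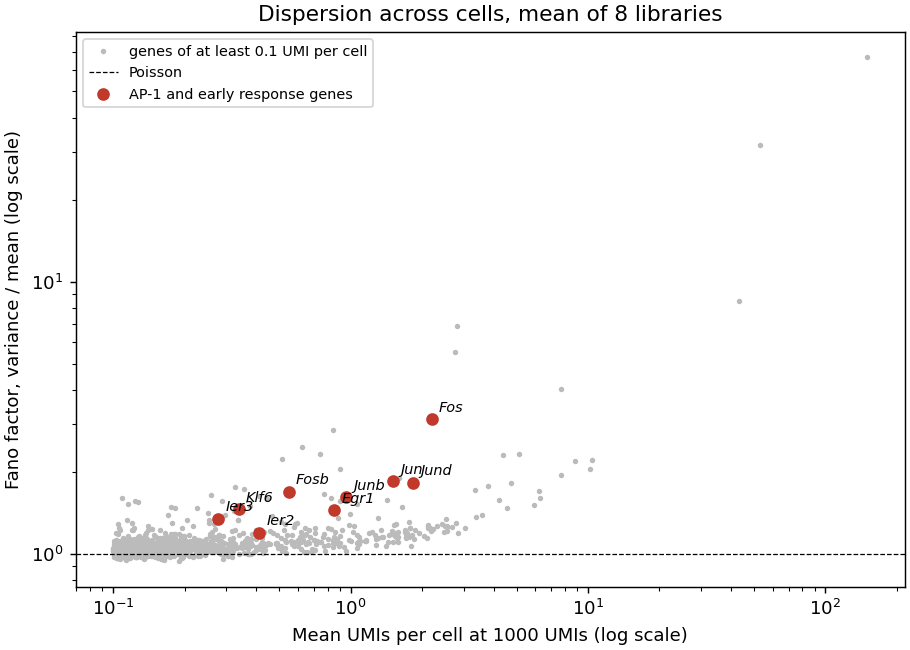
Fano factor against mean UMIs per cell (both log scales) at 1000 UMIs per cell, as means over 8 libraries, for genes of at least 0.1 UMI per cell, with 9 of the 10 genes in red and the Poisson value of 1 dashed. Fos (3.13) is exceeded by 6 of the 1155 genes and Ier2 (1.20) by 144.

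Within libraries, the 10 genes varied together across cells. The median Pearson correlation of the 45 pairs, computed on log2(count + 1) at 1000 UMIs per cell and averaged over 8 libraries of 26 to 96 cells, was 0.14. For the 36 pairs of the 9 genes of at least 0.1 UMI it was 0.16, against 0.01 over all pairs of the 1155 genes of that level. Pairs of 1 library share its cells, depth and chemistry, so these are descriptions. Fos and Fosb were the closest pair, with r = 0.38 (from -0.01 to 0.55 over libraries). Fos with Jund (0.37), Jun (0.32) and Junb (0.30) and Jun with Egr1 (0.30) followed. Fos and Jund were positive in each of the 8 libraries, from 0.29 to 0.65. Fos with Fosb was at 0.43, with Jun at 0.34 and with Jund at 0.33 when Dlk1+ replicate 3 was left out. In cells with a Fosb UMI, Fos was seen in 83.7% on average over libraries, against 52.4% in cells without one. Jun and Junb were less close to each other (0.14) than each was to Fos. Ier2 (highest r 0.17, with Jund), Ier3 (0.19, with Fos) and above all Atf3 (0.08, with Ier3) stood at the edge, and Atf3 with Klf6 was at -0.01. The median over pairs was 0.14, 0.08, 0.08 and 0.13 in Dlk1+ replicates 1 to 4 and 0.16, 0.15, 0.18 and 0.17 in Dlk1- replicates 1 to 4, and the 2 lowest values belong to the libraries of 27 and 26 cells. Correlations depended on depth: the median was 0.22 in the cells thinned to 2000 UMIs, in 7 libraries without Dlk1+ replicate 3, and 0.27 without thinning.

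**Figure D4:**
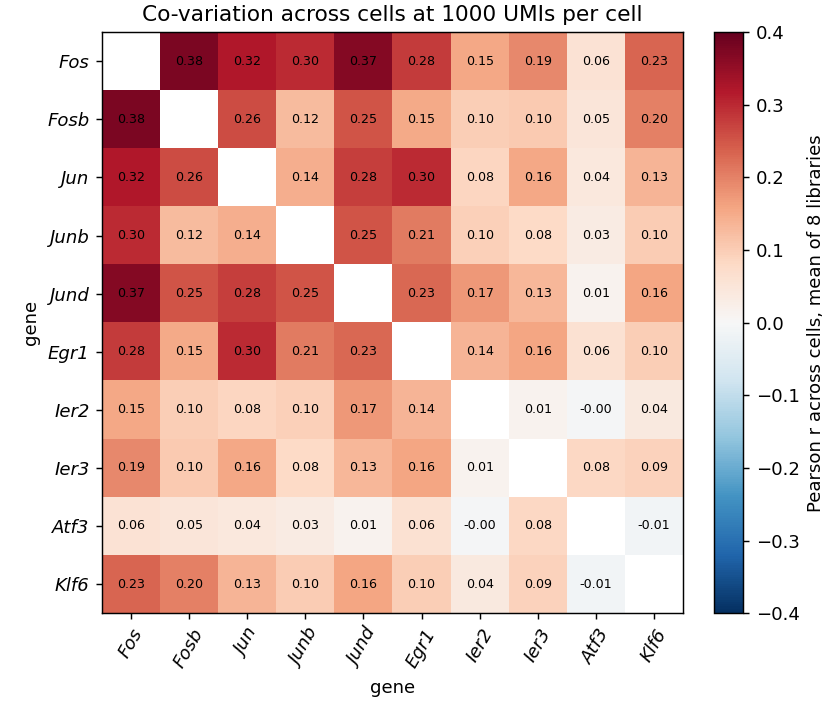
Pearson correlation of each pair of genes across cells at 1000 UMIs per cell, as the mean of 8 libraries. The block of Fos, Fosb, Jun, Junb, Jund and Egr1 holds the highest values, up to 0.38 for Fos and Fosb, and the row of Atf3 stays at or below 0.08.

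Summed over the 10 genes, a cell of the thinned set carried a median of 7.55, 8.2, 9.2 and 10.7 UMIs per 1000 in Dlk1+ replicates 1 to 4 and 5.8, 6.85, 5.2 and 8.2 in Dlk1- replicates 1 to 4. Cells ranged widely within each library, and in Dlk1+ replicate 4 the 10th and 90th percentiles were 2.9 and 20.7 UMIs. No UMI of any of the 10 was seen in 3.37%, 0.370%, 4.62% and 1.98% of Dlk1+ cells and in 7.5%, 10.3%, 8.32% and 5.74% of Dlk1- cells. The 2 sorts did not overlap in this share, which is a description of cells pooled over genes. The closest libraries were Dlk1+ replicate 3 (4.62% of 26 cells) and Dlk1- replicate 4 (5.74% of 94 cells), so few cells decide it. The same share was not computed for other sets of genes, and no background stands beside it. The sum correlated with the share of Gm10800 and Gm26870 in the cell (mean r -0.23, negative in each of the 8 libraries), with depth (-0.13, from -0.38 to 0.14, negative in 7 of 8), with the heat shock genes (0.11, from -0.02 to 0.23, positive in 7 of 8) and with the mitochondrial share (0.11, from -0.11 to 0.35). The last was positive in all 4 Dlk1+ libraries and negative in 3 of the 4 Dlk1- libraries, a difference that was not tested. Gm10800 and Gm26870 are counted in the same total as the 10 genes. A larger share of them leaves fewer UMIs for any other gene, so a negative r is in part fixed in advance. The same r for other genes is not given here. The part of depth, of these shares and of the heat shock genes in the sums was not tested.

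**Figure D5:**
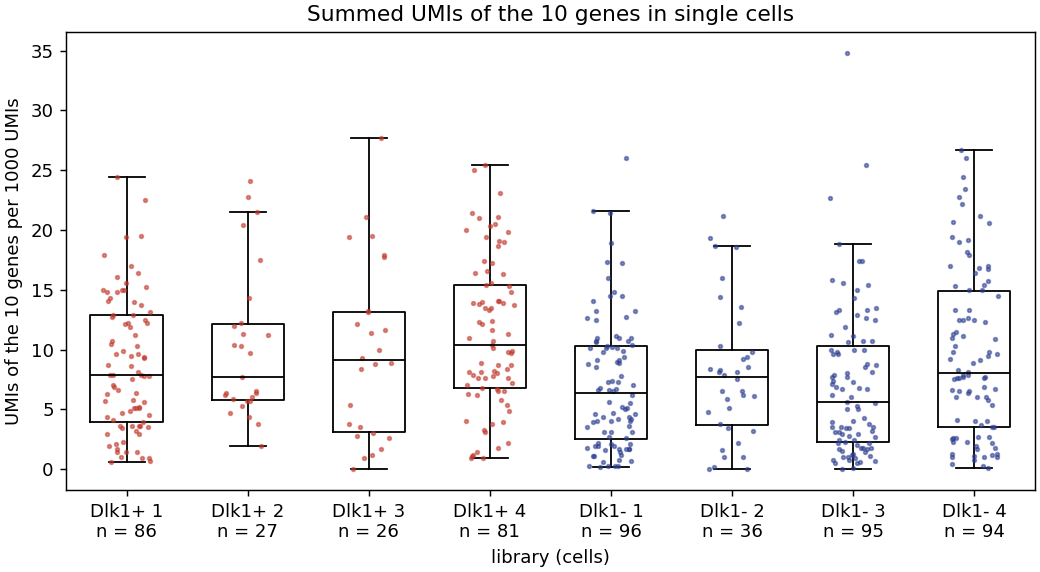
UMIs of the 10 genes per 1000 UMIs in single cells of each library, points as means of 10 draws, with boxes for the quartiles and median. Boxes overlap between the sorts, and every library holds cells from near 0 to over 20.

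Among 1146 other genes of at least 0.1 UMI, those whose level followed the summed UMIs of the 10 closely included Zfp36 (mean within-library r = 0.41), H3f3b (0.34), Nr4a1 (0.33), Dusp1 (0.25), Nfkbiz (0.24), Mcl1 (0.24), Nr4a2 (0.23), Btg2 (0.23) and Ppp1r15a (0.20), each over 8 libraries. The median over the 1146 was 0.02. Zfp36 encodes a protein that destabilises mRNA with AU-rich elements, Dusp1 a phosphatase of mitogen-activated kinases, Nr4a1 and Nr4a2 orphan nuclear receptors, and Ppp1r15a a phosphatase subunit of the stress response. Zfp36 was the nearest gene outside the 10 for 6 of them: Fos, Jun, Junb, Jund, Egr1 and Klf6. In Dlk1+ replicate 3 Zfp36 stood at 102 CPM and Nr4a1 at 51.2 CPM, the lowest of the 8 libraries for both.

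The other genes of the pathway were counted in lists. Of the other AP-1 and basic leucine zipper genes, 10 of 20 were tested and 0 passed in either direction (limma-voom), with a median log2 fold change of 0.14; Atf4, a factor of the amino acid response, was at 187 ± 116 CPM (SD, n = 4) in the Dlk1+ and 112 ± 28.7 CPM (SD, n = 4) in the Dlk1- libraries. Of the other immediate early genes, 20 of 32 were tested and 0 passed, with a median of -0.09. Nr4a1 was at 235 ± 182 CPM (SD, n = 4) in the Dlk1+ and 484 ± 84.3 CPM (SD, n = 4) in the Dlk1- libraries (log2 fold change -1.02, adjusted p = 0.694, limma-voom), and Mcl1, an anti-apoptotic protein, at 483 ± 202 and 323 ± 32.9 CPM. Of the feedback inhibitors, 15 of 20 were tested and 0 passed, with a median of -0.02. Without Dlk1+ replicate 3, Socs3, an inhibitor of cytokine receptor signalling, was higher in the Dlk1+ libraries and passed (log2 fold change 1.27, adjusted p = 0.00161, limma-voom). With all libraries its log2 fold change was 1.05 (adjusted p = 0.56, limma-voom), at 215, 283, 76.8 and 315 CPM in the Dlk1+ and 100.5, 104, 98.8 and 149 CPM in the Dlk1- libraries. Of the upstream kinases and serum response factors, 20 of 23 were tested and 0 passed, with a median of -0.07, and Stat3, a cytokine signal transducer, was at 176 ± 89.6 CPM (SD, n = 4) in the Dlk1+ and 212 ± 37.7 CPM (SD, n = 4) in the Dlk1- libraries. Of the heat shock genes, 9 of 13 were tested and 0 passed, with a median of 0.08, and their summed level was 3195 to 6041 CPM in the Dlk1+ and 3116 to 4180 CPM in the Dlk1- libraries. The highest of these was Hsp90ab1 at 3507 CPM in Dlk1+ replicate 3. The median over all genes tested was -0.04 in each of these comparisons. Without Dlk1+ replicate 3, where it was -0.01, the medians of the immediate early genes (0.07), feedback inhibitors (0.07) and upstream genes (0.06) turned positive, and those of the other basic leucine zipper (0.14) and heat shock genes (0.11) were positive as before.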

How the data were processed

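Single cells were measured by mCEL-Seq2 in 8 libraries, 4 for each sort. The deposited values are the authors' transcript estimates per gene and barcode, a UMI count corrected for collisions among 4096 possible UMIs and not scaled for depth (other unit; from the values). Undoing this correction returned whole UMIs within 3.64e-12. Alignment used BWA 0.6.2-r126 and mm10, per the submitters' processing notes; counting filters are not given in the sources used here. The members and gene lists were chosen with earlier results of these data known.

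Only each sort's own barcodes were used (1 to 96 for Dlk1+, 97 to 192 for Dlk1-), without 10 barcodes (17, 20 to 24 and 29 to 32) that carried counts in libraries of both sorts, and with at least 1000 transcripts; no doublet caller was run. Transcripts were summed per library, rounded, scaled by trimmed mean of M-values and tested with limma-voom (limma 3.58.1, R 4.3.3) over genes that in 4 or more libraries reached the CPM equal to 10 counts in a library of median size. Benjamini-Hochberg adjustment ran over all these genes, with a threshold of 0.05. No count model was used, since no automatic check of the unit was possible. The test was tried on simulated data. CPM are relative to the library total. Shares, Fano factors and correlations are means of 10 draws of 1000 UMIs per cell (Python 3.11.15, numpy 2.4.6). The genes named are the 10 members, of each list those past the threshold and up to 4 of the highest mean CPM, and the 10 genes most like the members' sum, of which 1 is not reported here. Alternatives changed the scaling, filters, cell limits, model, block, depth and libraries.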

Additional observations from a re-analysis of the deposited data

Results flagged for a closer look

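The 10 barcodes left out of both sorts also carried counts in the Dlk1- libraries, which place their cells on other barcodes. There they held 20 UMIs of the 10 genes, above the 3 counts that a count of 0 allows, among 25978 UMIs in all. Of these 20 UMIs, 15 were of Jund. The 10 genes made up 769.9 CPM of UMIs on these barcodes, against 7739 in the kept Dlk1- cells and 4116 on the other unused barcodes of the same libraries. No library stood apart from the rest of its sort in level or Fano factor by Dixon's criterion for 4 samples, in any of 40 groups of values looked at, of which chance alone would mark about 1 in 20.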

How the results depend on the processing

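The comparison of the sorts was recomputed under 21 alternatives, of which leaving out the cell with over 10 myeloid marker UMIs was chosen after seeing the data. Shares, Fano factors and correlations were recomputed under fewer, which changed the depth or the libraries. For correlations, the measure and the counts of Gm10800 and Gm26870 were also changed. Thinning to 2000 UMIs together with leaving out Dlk1+ replicate 3, for shares and Fano factors, was also chosen after seeing the data. Genes past the threshold numbered 2 in the main limma-voom test, 0 with limma trend on log2(CPM + 1) (197 genes at an unadjusted p under 0.05), 1 with at least 2000 transcripts per cell, 1 after thinning to 1000 UMIs (921 genes tested) and 4 with the 10 barcodes. The unfiltered table called 3 genes. Leaving out 1 library gave 1 to 19 genes, the 19 without Dlk1+ replicate 4, 1 without Dlk1+ replicate 2 and 1 without Dlk1- replicate 3. Replicate numbers were not used as pairs in the main test, and whether they pair the samples cannot be told from the labels. Same-numbered libraries had deviations correlated at 0.03, 0.02, 0.043 and 0.046, none above 0.1, each the best match of its number. Libraries of different numbers lay between -0.035 and 0.012. Same-numbered libraries also came from the same plate. The replicate block called 1 gene. No alternative brought a member past the threshold except leaving out Dlk1+ replicate 4, for Ier3. The members' median log2 fold change turned to -0.017 at 2000 transcripts per cell, where Dlk1+ replicate 3 keeps 4 cells, and was 0.08 to 0.35 when 1 library was left out. There Fos was at -0.035, Jun at -0.32 and Egr1 at -0.58. Ier3, Jund, Klf6 and Atf3 stayed positive and Fosb negative under every alternative that tested them; Atf3 was not tested after thinning. Junb turned positive with no low-count filter (0.029), with the replicate block (0.035), at 500 transcripts (0.23), without cells of very high transcript number (0.0021), with the 10 barcodes (0.040), after thinning (0.32) and without the myeloid cell (0.0092), and when 1 library was left out reached 0.41 (Dlk1+ replicate 3) and 0.04 (Dlk1- replicate 4). Ier2 turned negative with no filter (-0.037), with limma trend (-0.19), with the replicate block (-0.0007) and with the 10 barcodes (-0.037), and without Dlk1+ replicate 1 (-0.17), 2 (-0.16) or 4 (-0.03) or Dlk1- replicate 1 (-0.01), 3 (-0.11) or 4 (-0.01). Jun was at -0.056 without Dlk1+ replicate 1. With 1 library left out, Jun ranged up to 0.19, Junb from -0.22 to 0.41 and Ier2 up to 0.30. The cause was not tested. The median pair correlation was 0.22 at 2000 UMIs, 0.27 without thinning and 0.13 to 0.14 with 1 library left out. Depth limits Atf3 most, with 1 to 23 UMIs per library.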

Other observations

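Dlk1+ replicate 3 departed from the other 7 libraries in opposite directions among the 10 genes. Its deviation, on log2(CPM + 10), was 1.51 for Jund and 1.22 for Ier3, higher than for 96.0% and 92.2% of 5666 genes. It was -2.34 for Fosb, -1.62 for Junb and -1.61 for Ier2, where the median gene was at -0.29. Of the 5666 genes, 10.3% lay below Fosb, 29.6% below Junb and 29.7% below Ier2, so drops as large as those of Junb and Ier2 were common. Across the 5345 of these genes with a protein-coding transcript in GENCODE, the deviation had a Spearman correlation of 0.13 with GC content and 0.001 with transcript length; genes are not independent replicates. In the 49 barcodes of 500 to under 1000 transcripts of that library, Fosb stood at 247 CPM of UMIs and Junb at 877, against 102 and 282 in its 26 kept cells.

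Among the 10 barcodes left out, those of the Dlk1+ libraries carried 1085 UMIs of the 10 genes at 9017 CPM of UMIs, beside 9282 in the kept Dlk1+ cells, and Jund made up 21.6% of them.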
